A study of Mus musculus with 48 samples.

Results

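The 10 genes described here are the core of the mammalian circadian clock as it is transcribed: Arntl, Clock, Npas2, Per1, Per2, Per3, Cry1, Cry2, Nr1d1 and Dbp. They were chosen by gene symbol, and all 10 were found among the 27281 rows of the expression table. They were followed in 48 RNA-Seq samples, 3 in each of 16 conditions. STHdhQ111 cells, a line of mouse striatal progenitor cells whose huntingtin alleles both carry a knocked-in expanded repeat, received vehicle (Q111SST) or 1 of 14 compounds. STHdhQ7 cells, the companion line with the wild-type repeat, received vehicle (Q7SST). All were kept in serum-free medium for 24 h. Each genotype was represented by a single immortalized line, so genotype and line cannot be told apart. The labels give these doses: 0.5 nM haloperidol and nicotinamide, 1 nM nortriptyline, 10 nM trichostatin A, 250 nM fingolimod phosphate, 5 µM pizotifen, 250 µM cysteamine, 1 mM sodium butyrate and 4 mM 4-deoxypyridoxine (DOP). Selisistat, meclizine, loxapine, cyproheptadine and diacylglycerol kinase inhibitor II (DKI) were all used at 10 µM.

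The clock is a feedback loop of transcription that runs in nearly every mammalian cell. The proteins of Arntl (also called BMAL1) and of Clock, or of its relative Npas2, pair and bind E-boxes, where they activate the Per and Cry genes. The PER and CRY proteins then repress that pair, and the loop takes about a day. Nr1d1 encodes REV-ERB alpha, which represses Arntl through RORE elements, and Dbp encodes an activator that binds D-boxes. Cultured cells carry the loop too, but cells of a dish drift out of phase unless a stimulus such as a change of serum aligns them.

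The promoters of the 3 members that hold such an element, in the letters searched here, within 250 bases before a RefSeq start are shown. Cry1 and Per1 have steady differences between compounds and both references used below. Per3 is the member that matched the D-box letters searched. Capitals mark the matched element, CACGTG for the E-box and TTATGTAA for the D-box.
Per1, chr11:69098699-69098948 of GRCm38, plus strand: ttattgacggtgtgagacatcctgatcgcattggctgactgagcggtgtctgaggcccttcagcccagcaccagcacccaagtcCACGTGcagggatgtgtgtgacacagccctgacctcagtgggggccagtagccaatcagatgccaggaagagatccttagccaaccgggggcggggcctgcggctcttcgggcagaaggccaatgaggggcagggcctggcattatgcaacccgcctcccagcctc
Cry1, chr10:85185055-85185304 of GRCm38, minus strand: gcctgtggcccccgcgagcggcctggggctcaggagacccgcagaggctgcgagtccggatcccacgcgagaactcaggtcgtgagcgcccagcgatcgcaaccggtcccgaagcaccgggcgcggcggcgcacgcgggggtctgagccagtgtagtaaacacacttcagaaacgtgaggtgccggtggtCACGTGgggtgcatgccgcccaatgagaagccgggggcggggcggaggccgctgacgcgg
Per3, chr4:151044666-151044915 of GRCm38, minus strand: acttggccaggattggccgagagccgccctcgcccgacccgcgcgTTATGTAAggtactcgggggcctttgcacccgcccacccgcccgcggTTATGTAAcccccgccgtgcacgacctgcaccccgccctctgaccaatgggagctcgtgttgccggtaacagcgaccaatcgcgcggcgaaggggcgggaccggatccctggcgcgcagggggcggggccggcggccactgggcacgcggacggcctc

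The E-box lay 166 to 161 bases before the start in Per1 and 60 to 55 bases before it in Cry1, and the D-boxes of Per3 lay at 205 to 198 and 158 to 151 bases. Both strands were searched for CACGTG, for the RORE core TAGGTCA, for the D-box as TTATGTAA or TTACGTAA, and for the cyclic AMP response element TGACGTCA. Other spellings of these elements were not searched, so a window without a match can still hold one. Of 32851 mouse promoter windows of the same length, 6.02% held the E-box, 2.23% the RORE core, 0.931% the D-box and 1.55% the cyclic AMP response element. RefSeq gave 13 windows for 9 of the 10 members, and the other windows held none of these letters.

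The deposited values were normalized log2 abundances that were not divided by transcript length, so levels were compared between conditions and never between genes. Over all samples, 9 members had a mean of at least 1, the minimum for a test. Npas2, with a mean of -0.12, did not, and its values from -0.16 to 0.09 lay in a range where the transformation leaves hardly any variation. It was highest in Q7SST (0.060 ± 0.023), with nortriptyline next at -0.10 ± 0.043, a difference that was not tested. Tests ran over 13409 genes with limma, with condition and collection day in the fit, and an adjusted p under 0.05 was the threshold for a call. Replicates correlated with r from 0.9964 to 0.9994. Selisistat replicate 2 and Q7SST replicate 1 deviated most from their condition means, with a root mean square of 0.145 and 0.138 on the log2 scale against a median of 0.0773. The label of striatal progenitor cells held in part. In Q111SST the progenitor markers Vim and Cdh2 stood at 15.4 and 10.2, but Nes and Sox2 at 4.96 and 4.81, against 10.95 and 8.91 in Q7SST. Of the markers in the table, 2 of 5 for striatal neurons had a mean over the minimum (Foxp1 at 9.88 and Ppp1r1b at 1.93, with Drd1 below it), 1 of 4 for microglia (Csf1r at 2.01, with Cx3cr1 below it) and 3 of 4 for fibroblasts (Col1a1 highest at 14.5, with Lum below it).

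Whether clock transcripts differed with the time of collection was asked first. Samples were taken on 3 days at 3 numbered times, and the labels give no clock hours. Every condition was sampled once at each time, and each day and time together form a slot, of which there were 9 with 3 to 7 samples each. No time difference of a clock gene was found in this table. The largest was 0.023 on the log2 scale, for Per1 between times 2 and 1, and no 95% interval of the 27 differences tested reached beyond 0.116. F values for time ran from 0.00188 for Per3 to 0.550 for Per1, with unadjusted p-values of 0.582 to 0.998, and 0% of all genes were called. For collection day, the largest difference was 0.024, again for Per1, F values ran from 0.0217 to 0.409, and 0% of all genes were called.

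The absence of time differences was not particular to the clock genes, and it went further than replicate spread allows for. Over all 13409 genes the median F for time was 0.0559, where a median of 0.707 goes with genes that do not depend on time, and the highest F of any gene was 1.14. No gene had an unadjusted p under 0.05 for time (the smallest was 0.332), although 5% would by replicate spread alone. For day the median F was 0.0480 and the smallest unadjusted p 0.348, again with 0 genes under 0.05. The means of times and days were therefore more alike in the deposited values than independent samples would be. The methods describe a day term in the authors' differential test and name no such step for the deposited values, and whether one was applied was not tested. Every sample was also taken after 24 h in serum-free medium, so collection time did not vary the time since that change of medium. For both reasons the table does not show whether these RNAs cycled in the cells.

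**Figure D1:**
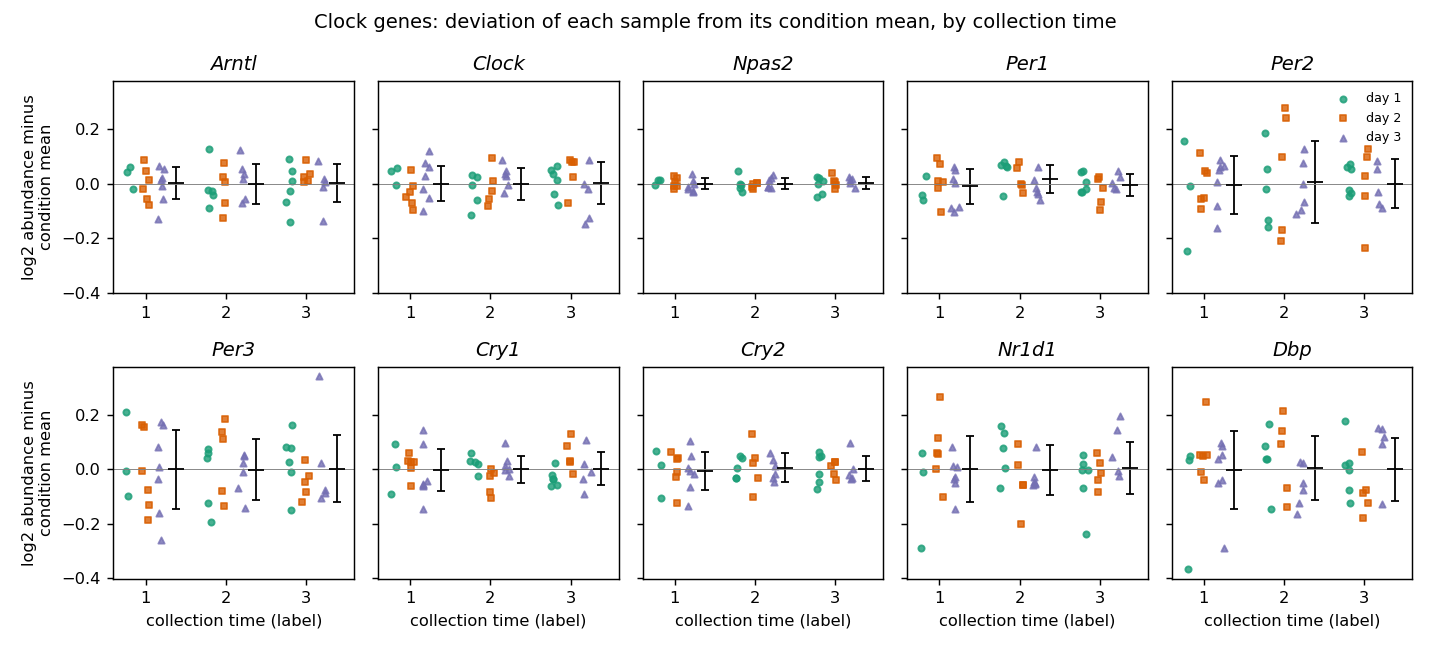
Deviation of each sample from its condition mean (vertical axis, log2) by collection time (horizontal axis) for the 10 clock genes, with collection days by symbol and colour and, at the right of each time, the mean and SD. Time means lie near 0 in every panel, and the largest difference between time means from the fit is 0.023, for Per1.

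**Figure D2:**
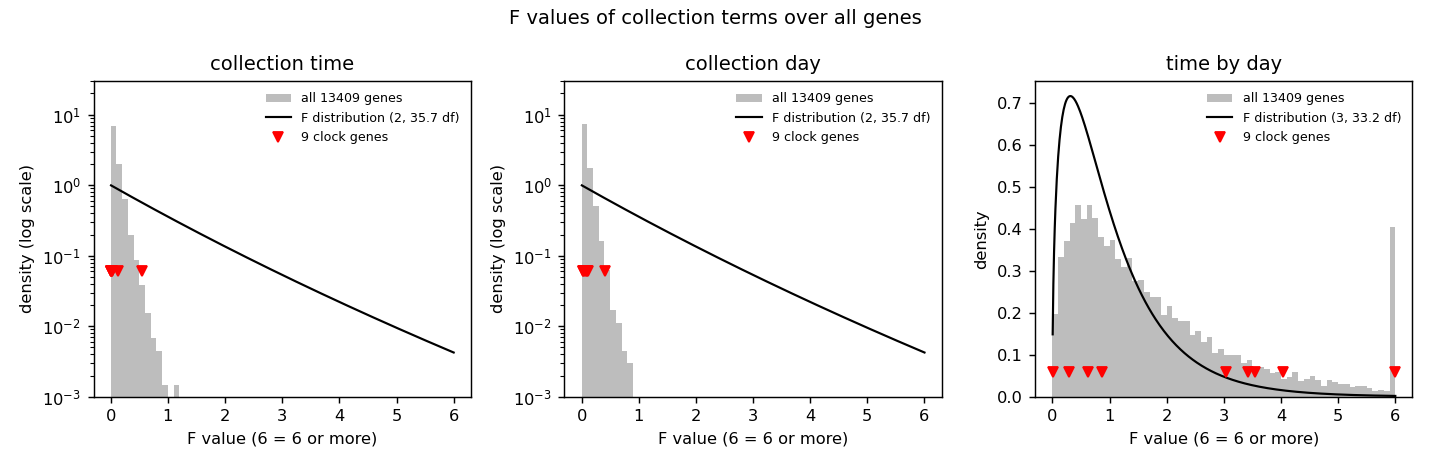
F values (horizontal axis) of all 13409 genes tested as grey histograms, with the F distribution of genes without an effect as a line and the 9 tested clock genes as red triangles, for collection time, collection day and time by day. The vertical axes are densities, on a log scale in the first pair of panels, where all genes crowd towards 0 (medians of 0.0559 and 0.0480). For time by day the genes lie to the right of the line (median 1.35).

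A different picture came from the particular combinations of day and time. Once day and time were both in the fit, 3.39% of all genes were called for the remaining slot differences (time by day), with a median F of 1.35 against 0.805 for genes without an effect and 2591 genes at an unadjusted p under 0.05. Among the clock genes 1 of 9 was called, Cry1 (F = 7.04, adjusted p = 0.035). Its mean deviation from the condition means was 0.050 on day 2 at time 3, the highest of the 9 slots, and -0.046 on day 2 at time 2, the lowest. Clock, Per3, Nr1d1 and Dbp had unadjusted p-values of 0.0425, 0.0282, 0.0251 and 0.0149 and were not called. The Cry1 call was lost without the 2 samples whose replicate number and labelled day differ, replicate 1 of cyproheptadine and of DKI (F = 4.35, adjusted p = 0.329), and when any 1 of 9 of the 16 conditions was left out. Tested jointly over the slot differences that could be estimated (7 degrees of freedom), 0.537% of genes and none of the clock genes were called by limma. Cry1 alone among the clock genes had an unadjusted p under 0.05 (0.0134). Day 1 at time 3, day 2 at time 1 and day 3 at time 2 share no condition with the other slots. Their difference from those slots was therefore not tested.

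The slots bear on the comparisons with vehicle. Q7SST, Q111SST and selisistat were collected in the same 3 slots, and so were cyproheptadine and DKI apart from replicate 1. The other 11 compounds shared no slot with the vehicle control. They form 2 sets, 5 compounds that were collected on day 1 at time 2, day 2 at time 3 and day 3 at time 1, and 6 compounds that were collected on day 1 at time 3, day 2 at time 1 and day 3 at time 2. For 7 of the 11 a second reference was therefore used, a pair of compounds given at nanomolar doses in the same 3 slots and called low-dose here: haloperidol and fingolimod phosphate for meclizine, pizotifen and trichostatin A, and nicotinamide and nortriptyline for sodium butyrate, loxapine, DOP and cysteamine. These references are treated cells, not vehicle, and trichostatin A at 10 nM was itself given below the dose of fingolimod phosphate (250 nM). All comparisons with Q111SST share the same 3 vehicle samples, and those with a low-dose pair share its 6 samples.

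Between the cell lines, 7 of 9 clock genes differed, 4 of them higher and 3 lower in Q7SST, where 55.8% of all genes were called. The activator gene Arntl had the largest difference. It stood at 7.59, 7.60 and 7.39 in the Q7SST samples and at 6.86, 6.89 and 6.90 in the Q111SST samples. All Q7SST samples lay above every other sample of the series, and the difference was 0.64 (1.56-fold, SE 0.071, adjusted p = 6.0e-10). In bulk RNA like this, a change in the make-up of the culture and a change of RNA per cell cannot be told apart. The repressor genes went different ways. Per2 was 1.39-fold higher in Q7SST (5.81 ± 0.26 against 5.34 ± 0.094, SD, n = 3, adjusted p = 0.00051) and Cry1 was 1.26-fold higher (8.15 ± 0.092 against 7.82 ± 0.023, adjusted p = 3.9e-05). Per1 was 1.21-fold lower (8.13 ± 0.059 against 8.41 ± 0.025, adjusted p = 6.2e-05), and Cry2 was 1.23-fold lower (7.63 ± 0.033 against 7.93 ± 0.057, adjusted p = 9.5e-05). No call in these 5 genes was lost when a single library was left out.

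The remaining calls between the lines were less steady. Per3 was 1.28-fold lower in Q7SST (log2 difference -0.35, adjusted p = 0.012), and the call was lost without Q111SST replicate 2 (-0.25, adjusted p = 0.112) or without Q7SST replicate 3 (-0.30, adjusted p = 0.063). Dbp was 0.33 higher (adjusted p = 0.017), but its Q7SST samples of 6.64, 7.22 and 7.16 overlapped the Q111SST samples of 6.72, 6.53 and 6.76. That call was lost without Q7SST replicate 2 (0.22, adjusted p = 0.152), Q7SST replicate 3 (0.25, adjusted p = 0.117) or Q111SST replicate 2 (0.25, adjusted p = 0.113), and without Q7SST replicate 1 the difference was 0.53. Clock (0.03, adjusted p = 0.757) and Nr1d1 (0.20, adjusted p = 0.0907) were not called. Without Q7SST replicate 1, one of the libraries farthest from its condition mean, Nr1d1 was called (0.35, adjusted p = 0.0035), and without any other single library it was not (0.09 to 0.20). Other genes moved with this comparison too: the progenitor markers Nes and Sox2 as given above, and 3 of 6 cell cycle markers, called higher in Q7SST with 0 called lower. Fibroblast and astrocyte markers did not move as sets. Col1a2 stood at 13.03 in Q111SST and 10.33 in Q7SST, but Col1a1 at 14.63 and 14.65 and Dcn at 7.32 and 7.25. Slc1a3 stood at 7.21 and 6.31, but Aldh1l1 at 2.65 and 2.87. Lum and Gfap lay below the minimum. The part of all these genes in the comparison was not tested.

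**Figure D3:**
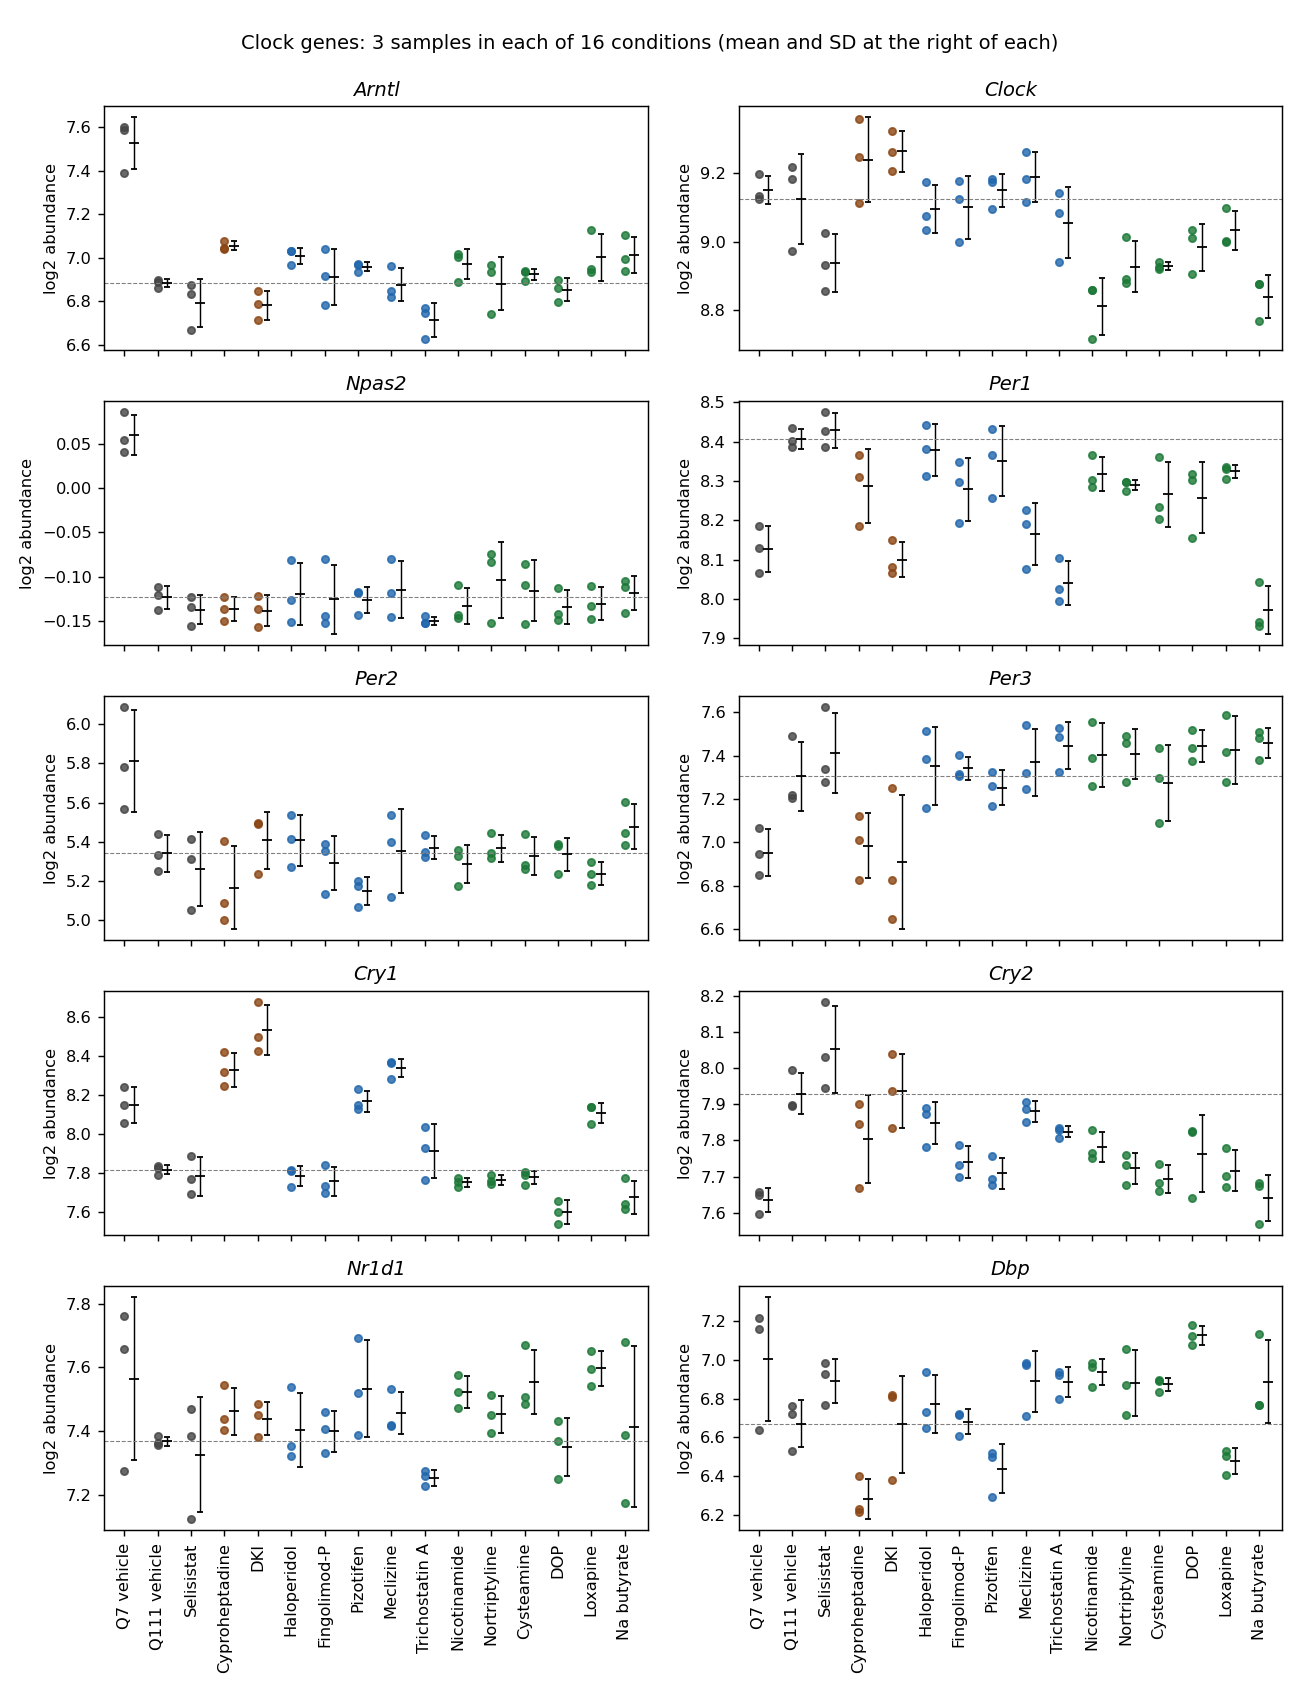
Normalized log2 abundance (vertical axis) of the 10 clock genes in 3 samples of each of 16 conditions (horizontal axis), with mean and SD at the right of each and the Q111SST mean as a dashed line. Colours mark sets of shared slots: grey and brown for the slots of vehicle (brown where replicate 1 is labelled day 3), blue and green for the other sets. Cry1 stands above vehicle with DKI, meclizine, cyproheptadine, pizotifen and loxapine, and Arntl stands apart in Q7SST.

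Against vehicle, 21 of 126 differences between a compound and Q111SST were called in clock genes, 6 higher and 15 lower, which is 16.7% where 17.0% of all gene-by-compound differences were called. As a group the clock genes were thus called about as often as other genes, and the calls were spread unevenly among them. Cry1 was called with 6 compounds, Cry2 with 5, Per1 with 4, Clock, Per3 and Dbp with 2 each, and Arntl, Per2 and Nr1d1 with none of the 14.

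Cry1, which encodes a repressor of the CLOCK and ARNTL pair, rose with 5 compounds, and these 5 are the members of the groups that the study formed from molecular profiles of these cells, Group B (meclizine and DKI) and Group A (pizotifen, cyproheptadine and loxapine). Since the RNA data entered that grouping, the match is not independent evidence. Vehicle samples stood at 7.82, 7.79 and 7.84. DKI samples stood at 8.68, 8.43 and 8.50, which gave the largest difference of any member and compound (0.72, 1.64-fold, SE 0.066, adjusted p = 3.6e-11). Meclizine samples stood at 8.36, 8.37 and 8.29 (0.52, 1.44-fold, adjusted p = 1.2e-07). Cyproheptadine samples stood at 8.42, 8.25 and 8.32 (0.51, 1.42-fold, adjusted p = 1.6e-07). All of these lay well above the vehicle samples. Pizotifen samples, at 8.23, 8.15 and 8.13, were higher by 0.35 (1.28-fold, adjusted p = 0.00020). Loxapine samples, at 8.05, 8.14 and 8.14, were higher by 0.29 (1.22-fold, adjusted p = 0.0013). No sample of the 5 compounds overlapped with vehicle, and each call held when any single library was left out. Cyproheptadine and pizotifen have like tricyclic skeletons, but their doses differed, so their values stand side by side without a comparison.

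In the order of Cry1 levels, the gaps between neighbouring conditions exceeded the larger of their SDs at 3 of 15 places. These were between trichostatin A (7.91 ± 0.14) and loxapine (8.11 ± 0.051), between pizotifen (8.17 ± 0.054) and cyproheptadine (8.33 ± 0.089), and between meclizine (8.34 ± 0.047) and DKI (8.53 ± 0.13). From sodium butyrate (7.68 ± 0.086) up to trichostatin A, vehicle included, neighbouring conditions lay within that spread, and Q7SST (8.15 ± 0.092) lay between loxapine and pizotifen. The sodium butyrate difference from vehicle (-0.14, adjusted p = 0.088) was called without sodium butyrate replicate 3 (-0.19, adjusted p = 0.037). DOP was the lowest at 7.60 ± 0.061, and Cry1 fell by 0.22 with it (adjusted p = 0.016). That call was lost without Q111SST replicate 1 (-0.21, adjusted p = 0.060) or DOP replicate 1 (-0.19, adjusted p = 0.081), and against the low-dose compounds the difference was -0.16 (adjusted p = 0.066).

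Per1, a repressor gene that also answers to acute stimuli, fell with 4 compounds. The 2 with the lowest levels inhibit histone deacetylases. Sodium butyrate samples stood at 7.94, 8.04 and 7.93 and vehicle samples at 8.43, 8.40 and 8.39, and the level fell by 0.44 on the log2 scale (1.35-fold lower, SE 0.057, adjusted p = 1.8e-07). Trichostatin A samples stood at 8.00, 8.03 and 8.10 (-0.37, 1.29-fold lower, adjusted p = 2.2e-05). DKI samples stood at 8.15, 8.07 and 8.08 (-0.30, 1.23-fold lower, adjusted p = 5.0e-05), and meclizine samples at 8.23, 8.19 and 8.08 (-0.24, 1.18-fold lower, adjusted p = 0.0013). None of these samples overlapped with vehicle, and all 4 calls held when any single library was left out. The vehicle mean was the second highest of the 16 conditions, and the fitted difference was below 0 with all 11 compounds that shared no slot with it.

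**Figure D4:**
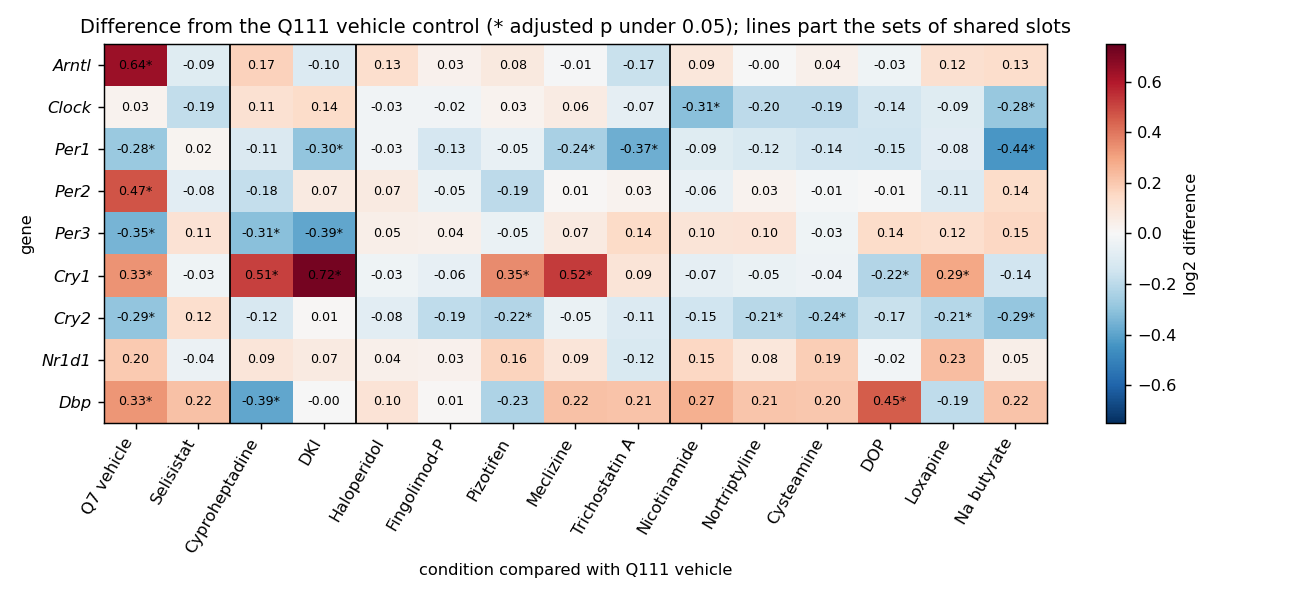
Log2 difference of each condition from the Q111SST vehicle control (colour and printed value, red for higher) for the 9 tested clock genes (rows), with an asterisk at an adjusted p under 0.05 and vertical lines between sets of shared slots. Cry1 is high with DKI (0.72), meclizine (0.52) and cyproheptadine (0.51), and Per1 is low with sodium butyrate (-0.44).

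With each compound the share of all genes called sets the scale for these counts. DKI called 42.3% of all genes and 3 clock genes (Cry1, Per1 and Per3), sodium butyrate 37.5% and 3 (Per1, Cry2 and Clock), and cyproheptadine 35.6% and 3 (Cry1, Per3 and Dbp). Meclizine called 26.8% of all genes and 2 clock genes (Cry1 and Per1), loxapine 21.9% and 2 (Cry1 and Cry2), DOP 20.1% and 2 (Cry1 and Dbp), and pizotifen 17.9% and 2 (Cry1 and Cry2). Trichostatin A called 13.1% and 1 (Per1), nicotinamide 10.4% and 1 (Clock), cysteamine 7.83% and 1 (Cry2), and nortriptyline 3.83% and 1 (Cry2). No clock gene was called with selisistat, with fingolimod phosphate or with haloperidol, where 0.515%, 0.0597% and 0% of all genes were called. For haloperidol 397 genes had an unadjusted p under 0.05.

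The second reference separated these calls into steady and less steady ones. Against the low-dose compounds of the same slots, Cry1 was higher by 0.57 with meclizine (adjusted p = 5.0e-10), by 0.40 with pizotifen (adjusted p = 3.2e-06) and by 0.35 with loxapine (adjusted p = 1.6e-05). Per1 was lower with sodium butyrate (-0.33, adjusted p = 1.9e-06), with trichostatin A (-0.29, adjusted p = 6.3e-05) and with meclizine (-0.16, adjusted p = 0.0096). All of these held without any single library, except that the last was lost without meclizine replicate 3 (-0.12, adjusted p = 0.114). For cyproheptadine and DKI, no low-dose compound shares more than 1 slot.

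Cry2 and Clock behaved otherwise. Cry2, the close relative of Cry1, was lower than vehicle with all 11 compounds of the other slots, by 0.048 to 0.29 on the log2 scale, the low-dose compounds included. The difference was called with sodium butyrate (-0.29, adjusted p = 0.00032), cysteamine (-0.24, adjusted p = 0.015), pizotifen (-0.22, adjusted p = 0.010), loxapine (-0.21, adjusted p = 0.011) and nortriptyline (-0.21, adjusted p = 0.049). Against the low-dose compounds none of the 7 differences in Cry2 was called, and they ran from -0.11 to 0.087 (smallest adjusted p = 0.114). Clock, the partner of Arntl, was below vehicle with all 6 compounds that share day 1 at time 3, and was called with nicotinamide (8.81 ± 0.083 against 9.12 ± 0.13, difference -0.31, adjusted p = 0.0022) and with sodium butyrate (-0.28, adjusted p = 0.00079). Nicotinamide was given at 0.5 nM. Selisistat, collected in the same slots as vehicle, was also lower in Clock but not called (-0.19, adjusted p = 0.150). Against the low-dose pair, which holds nicotinamide, sodium butyrate did not move Clock past the threshold (-0.03, 95% interval -0.14 to 0.086). For compounds that share no slot with vehicle, a difference of Cry2 or Clock from vehicle cannot be told apart from one of slot.

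The Cry2 calls also leaned on few libraries. Vehicle samples stood at 8.00, 7.90 and 7.90, and without Q111SST replicate 1 the calls were lost with cysteamine (-0.20, adjusted p = 0.145), pizotifen (-0.19, adjusted p = 0.081), loxapine (-0.18, adjusted p = 0.084) and nortriptyline (-0.17, adjusted p = 0.289). Cysteamine lost its call without its own replicate 3 as well (-0.22, adjusted p = 0.107), loxapine without its replicate 3 (-0.19, adjusted p = 0.059) and pizotifen without its replicate 1 (-0.20, adjusted p = 0.051). For nortriptyline the call was lost without any 1 of the 6 libraries compared, with differences from -0.23 to -0.17 and adjusted p from 0.052 to 0.289. The sodium butyrate call held without any single library. DOP was not called (-0.17, adjusted p = 0.051) but was without its replicate 1 (adjusted p = 0.045) or replicate 3 (adjusted p = 0.038), and Per1 with DOP was called without that replicate 3 as well (-0.19, adjusted p = 0.035, against -0.15 and 0.058 with all samples). Clock turned on Q111SST replicate 3. Without it, Clock was also called with cysteamine (-0.28, adjusted p = 0.0079), nortriptyline (-0.28, adjusted p = 0.013), DOP (-0.22, adjusted p = 0.019) and selisistat (-0.27, adjusted p = 0.047). The selisistat difference was called without selisistat replicate 3 too (-0.23, adjusted p = 0.042). Without Q111SST replicate 2, Clock was called higher with DKI (0.19, adjusted p = 0.037).

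**Figure D5:**
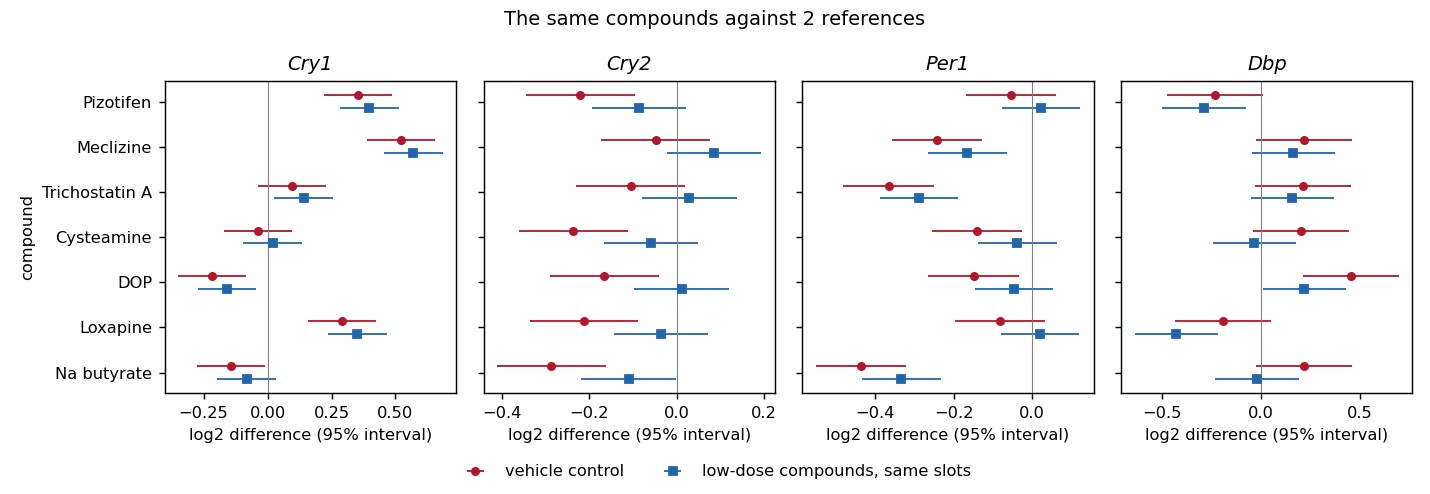
Log2 difference and 95% interval (horizontal axis) of 7 compounds (vertical axis) for Cry1, Cry2, Per1 and Dbp, against the vehicle control (red circles) and against the low-dose compounds of the same slots (blue squares). Cry1 with meclizine is 0.52 and 0.57, and Cry2 with cysteamine is -0.24 against vehicle and -0.06 against the low-dose compounds.

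Dbp, the output activator, moved both ways. With cyproheptadine the samples stood at 6.23, 6.21 and 6.40, below the vehicle samples of 6.72, 6.53 and 6.76, and the level fell by 0.39 (1.31-fold lower, adjusted p = 0.011). The call was lost without cyproheptadine replicate 2 (-0.34, adjusted p = 0.052) or Q111SST replicate 3 (-0.33, adjusted p = 0.060). Loxapine samples stood at 6.50, 6.53 and 6.41. They were lower than their low-dose references, with a mean of 6.91 ± 0.12 (n = 6), by 0.43 (adjusted p = 0.0023), a call that held without any single library, while the difference from vehicle was -0.19 and was not called. Pizotifen was lower than its references by 0.29 (adjusted p = 0.049), and this call was lost without any 1 of 7 libraries (all 3 of pizotifen, and replicates 1 and 3 of haloperidol and of fingolimod phosphate), with adjusted p from 0.062 to 0.289. With DOP, samples of 7.12, 7.18 and 7.08 were above vehicle by 0.45 (1.37-fold, adjusted p = 0.0058). That call was lost without Q111SST replicate 2 (0.37, adjusted p = 0.056), and against the low-dose compounds the difference was 0.22 (adjusted p = 0.183).

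Per3, the third Period gene, stood lowest with DKI (6.91 ± 0.31), in Q7SST (6.95 ± 0.11) and with cyproheptadine (6.99 ± 0.15), and the gap from these to pizotifen (7.25 ± 0.079) was the only one between neighbours larger than their SDs. It was 0.39 lower than vehicle with DKI (adjusted p = 0.0079), where samples of 6.65, 6.83 and 7.25 overlapped the vehicle samples of 7.21, 7.49 and 7.22. The DKI call was lost without DKI replicate 1 (-0.26, adjusted p = 0.112) or Q111SST replicate 2 (-0.29, adjusted p = 0.084). With cyproheptadine the difference was -0.31 (adjusted p = 0.039). It was lost without cyproheptadine replicate 1 (-0.23, adjusted p = 0.193), cyproheptadine replicate 3 (-0.32, adjusted p = 0.067) or Q111SST replicate 2 (-0.21, adjusted p = 0.238). Replicate 1 of both compounds is the sample whose number and labelled day differ. Per3 is overlapped on the same strand by the annotated gene Camta1, and Clock by Ube2n-ps1 and Gm43658, so reads there could belong to either gene.

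Arntl, Per2 and Nr1d1 were not called against vehicle with any compound. Arntl differences ran from -0.17 with trichostatin A to 0.17 with cyproheptadine. Against the low-dose compounds Arntl was lower with trichostatin A by 0.25 (adjusted p = 0.0048), and the call was lost without trichostatin A replicate 1 (-0.20, adjusted p = 0.090). Per2 differences from vehicle ran from -0.19 to 0.14, and those of Nr1d1 from -0.12 to 0.23 (loxapine, adjusted p = 0.097). No neighbouring conditions in the order of Nr1d1 levels were further apart than the larger of their SDs. Nr1d1, Dbp, Cry2 and Arntl are overlapped by genes on the other strand (Thra, Sphk2, D930015M05Rik and Gm45355), and the strand setting of the counting is not given in the sources used here.

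In all, the comparisons with low-dose compounds gave 10 calls of 63 in clock genes, or 15.9%, where 17.8% of all such differences were called. By compound, the shares of all genes were 28.8% for meclizine, 17.3% for pizotifen, 14.4% for trichostatin A, 30.8% for sodium butyrate and 22.8% for loxapine, with 2, 2, 2, 1 and 3 clock genes. The third of the loxapine calls was Clock, higher by 0.16 (adjusted p = 0.034), which was lost without any 1 of 6 libraries (all 3 of loxapine, replicates 1 and 2 of nortriptyline and replicate 2 of nicotinamide), with adjusted p from 0.062 to 0.186. Cry1 with trichostatin A was not called, but was without trichostatin A replicate 3 (0.22, adjusted p = 0.017, against 0.14 and 0.094 with all samples). DOP with 10.6% of all genes and cysteamine with 0.119% gave no clock gene.

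Group A and Group B were compared directly, a contrast in which vehicle plays no part. Of 9 clock genes 6 were called, where 41.3% of all genes were. In Group A, Dbp was lower by 0.38 (6.40 ± 0.13, n = 9, against 6.78 ± 0.22, n = 6, adjusted p = 0.00012) and Cry1 by 0.23 (8.20 ± 0.11 against 8.44 ± 0.14, adjusted p = 2.1e-05). Cry2 was lower by 0.17 (adjusted p = 0.00085) and Per2 by 0.20 (adjusted p = 0.028). Per1 was higher by 0.19 (adjusted p = 6.4e-05) and Arntl by 0.18 (adjusted p = 0.0019). Samples of the groups overlapped in all 6 genes, whose SDs also hold differences between compounds. The p-values rest on the spread of samples within conditions, so they do not measure how the compounds of a group vary. The Per2 call was lost without any 1 of 8 of the 15 libraries, with adjusted p from 0.051 to 0.143. These are replicate 1 and replicate 3 of cyproheptadine, of DKI and of meclizine, loxapine replicate 2 and pizotifen replicate 3. The other 5 calls held without any single library. Clock was not called (-0.08, adjusted p = 0.112), but was without cyproheptadine replicate 1 (-0.10, adjusted p = 0.048). Of 6 cell cycle markers, 5 were higher and 1 lower in Group A, and 4 were lower and 1 higher than vehicle with DKI and with meclizine. Their part in these results was not tested.

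Other genes of the clock pathway were read as lists. Of 12 further regulators of the loop, 5 were higher and 1 lower than vehicle with cyproheptadine, 5 and 2 with DKI, 7 and 1 with meclizine, 4 and 1 with loxapine, and 4 and 1 with pizotifen. The shares of all genes called with these compounds were 35.6%, 42.3%, 26.8%, 21.9% and 17.9%. Their median differences were 0.14, 0.046, 0.26, 0.098 and 0.018, beside medians over all genes between -0.0058 and 0.0048. Ciart, a repressor of the ARNTL pair, rose with all 5 compounds, by 1.80 with DKI, 1.25 with meclizine, 0.97 with cyproheptadine, 0.56 with pizotifen and 0.53 with loxapine. Nfil3, which encodes a repressor at D-boxes, rose by 0.33 to 0.72 with the same 5. The 2 relatives of Dbp parted: Hlf rose with all 5, most with meclizine (0.73) and cyproheptadine (0.67), while Tef fell with all 5, most with cyproheptadine (-0.62) and least with meclizine (-0.27). Against the low-dose compounds, meclizine, pizotifen and loxapine gave the same direction and a call for each of these 4 genes. The pattern was not confined to the 5 compounds. Tef was also called lower with sodium butyrate and trichostatin A against both references, and Nfil3 was called lower with trichostatin A against both. In Q7SST, Ciart, Nfil3 and Hlf were called higher and Tef lower than in Q111SST, where 55.8% of all genes were called.

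Some loop genes separated the compounds. Bhlhe40, which encodes a repressor at E-boxes, rose with pizotifen (0.64), loxapine (0.60), cyproheptadine (0.54) and meclizine (0.25) but fell with DKI (-0.24), with sodium butyrate (-0.36) and with DOP (-0.49). Nr1d2, the relative of Nr1d1, rose with DKI (0.56), meclizine (0.43) and trichostatin A (0.23). Between the lines, where 55.8% of all genes were called, 7 of the 12 were higher and 5 lower in Q7SST, with Ciart at 1.13. Of 9 known outputs, Klf9 rose with the 5 compounds of Groups A and B, by 0.49 to 0.88, and 6 were higher and 1 lower in Q7SST. Of 11 enzymes that act on clock proteins, the kinase gene Csnk1d was lower than vehicle with cyproheptadine, DKI, loxapine and DOP, and 7 were lower and 1 higher in Q7SST. Against the low-dose compounds none of the 11 was called with loxapine or DOP, where 22.8% and 10.6% of all genes were. For loxapine and DOP the Csnk1d difference from vehicle thus cannot be told apart from one of slot. None of the 32 genes of these lists had an unadjusted p under 0.05 for collection time, and the largest F among them was 0.462. The same held for all 13409 genes (highest F 1.14), so the table does not show whether these RNAs cycled either.

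From sample to sample within conditions, the clock genes showed little shared movement. Of 45 pairs, 1 passed after adjustment, Clock and Dbp, over 48 samples with the condition means removed (Pearson r = -0.50, permutation adjusted p = 0.020, Spearman rho = -0.55, permutation adjusted p = 0.026). Without the 2 samples farthest from the median r was -0.48, and with the slot means removed too it was -0.31, and under each of these alternatives 0 of the 45 pairs passed. The genes most like a member by the same measure were Cbx7 for Per3 (r = 0.87), Cpne2 for Nr1d1 (0.84), Mapk3 for Dbp (0.83), Pum2 for Clock (0.82), Ncdn for Cry2 (0.76) and Psat1 for Cry1 (0.76). All values of a sample come from the same library, and no test was made of these likenesses.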

How the data were processed

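RNA-Seq was analysed in 48 samples, grouped by condition, collection day and collection time from the labels. Reads were trimmed by the authors (Trimmomatic 0.36) and quantified with RSEM on the transcriptome of GRCm38.p5, and the authors used DESeq2 with a day term for their own differential tests. They deposited 1 normalized log2 value per gene and sample. The transformation is not named. It acts like a regularized logarithm: genes of low abundance hardly vary, and their differences are understated. Counts could not be recovered. Sequencing depth is thus unknown, counting error could not be computed, and no pseudocount was needed.

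Genes with a symbol and a mean of at least 1 (13409) were tested with limma 3.58.1 in R 4.3.3, with a variance trend, two-sided p-values and Benjamini-Hochberg adjustment within each comparison. Conditions were compared with collection day as a covariate (30 residual degrees of freedom), and collection terms with condition, day and time in the fit. The procedure was tested on a simulated table with differences of 0.5 planted on the log2 scale. It recovered 200 of 200 genes for collection time and 188 of 200 for haloperidol against Q111SST, with 213 and 196 genes called. The simulated noise was independent between samples, with a median F of 0.712 for time. The deposited values had 0.0559, so the simulation does not cover this feature of them. Correlations between members used 100000 permutations within conditions. Named genes are the 10 members, 3 lists of further clock genes of which those past the threshold could be named, and for each member the 3 genes most correlated with it, of which not all are reported here. Promoters are RefSeq sequences of GRCm38.p6, positions come from GENCODE on GRCm38, and figures used matplotlib 3.10.9 in Python 3.11.15. The members, lists, tests and alternatives were chosen with earlier results of these data known. Samples of a condition were collected at different times, and on different days except replicates 1 and 3 of cyproheptadine and of DKI. The labels do not say whether their cultures were started separately, so p-values measure the spread between these samples.

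Replicate numbers follow the collection day, except in replicate 1 of DKI and of cyproheptadine, labelled day 3. After condition means were removed, same-numbered samples had a mean correlation of -0.049, and 1 of 120 pairs of conditions had all 3 correlations over 0.1. Alternatives were other filters, rescaling, no variance trend, other terms for day, time and replicate number, only the compared samples, and leaving out replicates, libraries or conditions.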

Additional observations from a re-analysis of the deposited data

Results flagged for a closer look

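The 6 differences between Group A and Group B are listed because the means of 2 groups of compounds differed by a direct test (limma). Its p-values rest on the spread of samples within conditions and do not measure how the compounds of a group vary. They were 0.1766 for Arntl and 0.1878 for Per1, which were higher in Group A, and -0.197 for Per2, -0.2343 for Cry1, -0.1654 for Cry2 and -0.3774 for Dbp, which were lower. Cry1 lay above vehicle with all 5 compounds of both groups, so its flag concerns the size of the rise. Cyproheptadine of Group A and meclizine of Group B had nearly the same Cry1 level (8.33 ± 0.089 and 8.34 ± 0.047). Loxapine shared no slot with DKI or meclizine, and pizotifen shared 1 with DKI. The part of the slot in these differences was not tested. No condition has more than 3 samples, too few for a check of single outlying samples.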

How the results depend on the processing

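The direction of every called difference was kept under every alternative run, and 22 of 44 calls held under all of them. Leaving out replicates, libraries or conditions, 14 to 23 differences between compounds and vehicle were called (21 with all samples), 6 to 11 against low-dose compounds (10), 5 to 8 between the lines (7), 4 to 6 between Groups A and B (6), 0 to 2 for time by day (1) and 0 to 0 for collection time, day and slot. Time by day gave 0 calls without the 2 samples whose number and day differ, and could not be estimated without a replicate number. The call was also lost without 9 of the 16 conditions in turn, and without selisistat there were 2 calls. Among correlations, 0 pairs passed with slot means removed and 0 without the 2 farthest samples. No clock gene has a mean of 10 (Clock is highest at 9.05), so that stricter filter gave no value for them. With the replicate number as a block in place of the day, calls numbered 7, 21, 10 and 6 for the lines, compounds, low-dose comparisons and groups, and 0 for time and day, so the block changed no count. With the collection time as a further term they numbered 7, 20, 9 and 6. The cause of the lost calls was not tested, apart from the smaller number of samples where some were left out. Single genes were followed for called differences, for the collection tests and, without single libraries, for differences that became calls. Depth sets a limit that cannot be given, since the values hold no counts.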
